A study of Homo sapiens with 2 samples.

Results

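The genes described here are the ERBB receptors and their EGF-family ligands, a set of 10 genes listed by their role. The list was drawn up with earlier results of these data known. A probe set was taken as theirs when the platform annotation gave it exactly 1 gene symbol and that symbol was on the list. Of the 10 genes, 9 had at least 1 such probe set and they held 38 probe sets, out of 41091 probe sets and 19775 genes in all. No probe set carried the symbol AREG alone, so amphiregulin was not analysed here. The samples came from PLC8024, a human hepatocellular carcinoma (HCC) line, and were sorted by flow cytometry for cells without the surface marker CD133. These CD133- cells then received a lentivirus, either the empty vector (EV) or one carrying miR-130b, and 1 array was hybridised with total RNA from each. One label calls the miR-130b treatment a transfection, whereas the protocol gives lentiviral transduction. The sources used here do not give the promoter of the vector, the number of integrations or whether the cells were a pool or a clone.

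With 1 array per group there is no replicate. No test, standard error or p-value was therefore computed, and every difference below describes these 2 arrays. Values are RMA expression values on the log2 scale, and differences are miR-130b minus EV. A probe set counted as measured when its brighter array reached 4.88, which is the median over both arrays without control probe sets. Of the 38 probe sets, 18 were measured, from 7 genes, while all probe sets of ERBB4 and BTC lay below this floor. Where a gene had several, the one brightest on average stood for it. The available error is technical, namely the spread of the difference between measured probe sets of the same gene, with a pooled SD of 0.202 over 6047 genes. Probe sets of 1 gene read the same 2 RNA samples and are not replicates of the condition.

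ERBB receptors are receptor tyrosine kinases that bind EGF-family ligands outside the cell, pair with each other and signal through RAS-ERK, PI3K-AKT and STAT proteins. EGFR binds EGF, amphiregulin, TGF-alpha, epiregulin, betacellulin and HB-EGF, ERBB3 and ERBB4 bind neuregulins, and ERBB2 has no known ligand and acts as the shared partner. The ligands are made as membrane-bound precursors and are released by ADAM proteases, which TIMP3 inhibits. In liver, EGFR signalling is known for its part in regeneration after injury.

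The agent that differs between the groups is miR-130b, and both mature strands that RefSeq gives for its hairpin are shown because the seed is the part of a microRNA that pairs with its target transcripts. Capitals mark the seed, bases 2 to 8 from the 5' end, and both strands lie on the plus strand of GRCh38.p14, at chr22:21653354-21653375 for the 3p strand and chr22:21653316-21653336 for the 5p strand.
hsa-miR-130b-3p: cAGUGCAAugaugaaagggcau
hsa-miR-130b-5p: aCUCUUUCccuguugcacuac
Among the 2545 mature microRNAs in the RefSeq set used here, 5 others shared the 3p seed, miR-301a-3p, miR-301b-3p, miR-3666, miR-4295 and miR-454-3p. MicroRNAs outside this set were not searched, so these 5 need not be the whole seed family. The 5p strand carried a different seed. The level of miR-130b itself was not analysed here, and no probe set was annotated to MIR130B, so the arrays hold no direct check of the overexpression. Target sites in the members' transcripts were not searched.

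HBEGF, which encodes heparin-binding EGF-like growth factor, was the member with the largest difference. Its brightest probe set, 203821_at, read 7.25 in the EV array and 6.38 in the miR-130b array. This was a difference of -0.87, or 1.83-fold lower with miR-130b. The other measured probe set, 38037_at, read 6.87 in the EV array and 5.85 in the miR-130b array, a difference of -1.02 or 2.02-fold lower. Both probe sets stood above the floor in both arrays, and both were lower in the miR-130b array by more than 4 times the technical SD (4.31 times for the brighter one). This SD is a spread between probe sets and does not measure variation between cultures. The mean of the 2 differences was -0.94, with an SD of 0.10 between the probe sets. Of the 13260 genes measured, 231 or 1.74% had a lower difference than HBEGF. The 2 further HBEGF probe sets lay below the floor in both arrays and did not share the direction: 244857_at read 4.41 and 4.78, and 222076_at read 4.14 and 4.21, in the EV and miR-130b arrays respectively.

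Among the 7 measured members, HBEGF alone was lower with miR-130b by 1.5-fold or more (0.58 on the log2 scale), and 0 were higher by that much. Over all genes measured, 2.68% were at least 1.5-fold lower and 0.294% were at least 1.5-fold higher. By probe set, 2 of the 18 measured, both of HBEGF, were at least 1.5-fold lower and 0 were at least 1.5-fold higher, against 2.83% and 0.33% of all 23352 measured probe sets. One of the 2, 38037_at, passed 2-fold, as did 1.43% of all measured probe sets. A count of 1 in 7 is too small to be read as different from these shares.

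Other features of the arrays also differed, and not all in the direction of HBEGF. The signal of 5' probe sets relative to 3' probe sets of the same transcript was lower in the miR-130b array in 6 of 6 control transcripts, ACTB, GAPDH and 4 spike-ins, with shifts between -0.43 and -0.06 on the log2 scale. Of the stromal and endothelial markers, 4 of 8 were measured. By representative probe set 1 of these, COL1A2, was at least 1.5-fold lower, at 7.98 in the EV array and 4.90 in the miR-130b array. Over all genes measured, 2.68% were at least that much lower. The representative probe set of COL1A1 differed by -0.08, and 202312_s_at, above the floor in both arrays, by 0.38. Its other measured probe sets, 202310_s_at and 1556499_s_at, differed by -0.88 and -1.68. They passed the floor only through the EV array, so their direction was fixed by the filter. PDGFRB differed by -0.08. PECAM1 differed by 0.21, from 8.51 in the EV array to 8.72 in the miR-130b array, and by 0.05, -0.24 and -0.15 in its other measured probe sets. The linear values of COL1A1, COL1A2, PDGFRB and PECAM1 summed to 806 in the EV array and 630 in the miR-130b array. Of these genes COL1A2 had the largest difference, -3.08. COL3A1, ACTA2, CDH5 and VWF lay below the floor in both arrays. Among the leukocyte markers, 1 of 6 was measured, LYZ, at 9.77 and 9.46 in the EV and miR-130b arrays. Its other measured probe set, 1555745_a_at, read 5.76 and 4.04. It passed the floor only through the EV array, so its direction was fixed by the filter. Every PTPRC probe set lay below the floor. The part of RNA quality or of other cells in the HBEGF difference was not tested. In bulk RNA, fewer cells carrying a transcript and less of it per cell cannot be told apart. Of the 9 hepatocyte markers, 8 had a probe set and all 8 were measured. By representative probe set 3 of them were at least 1.5-fold lower with miR-130b, TTR with -3.34, KRT8 with -1.05 and ALB with -1.03. The share over all genes measured was again 2.68%. AFP differed by -0.57, APOA1 by -0.51 and KRT18 by -0.27, whereas SERPINA1 and APOB differed by 0.08 and 0.04. In further measured probe sets, APOB differed by 0.52 and ALB by -2.38 and -1.56. Those of APOA1 differed by -0.41 and 0.11, and those of SERPINA1 by -0.01 and 0.20. The transcript of the sort marker, PROM1, read 9.19 in the EV array and 6.07 in the miR-130b array, both above the floor although the cells were sorted as CD133-.

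**Figure D1:**
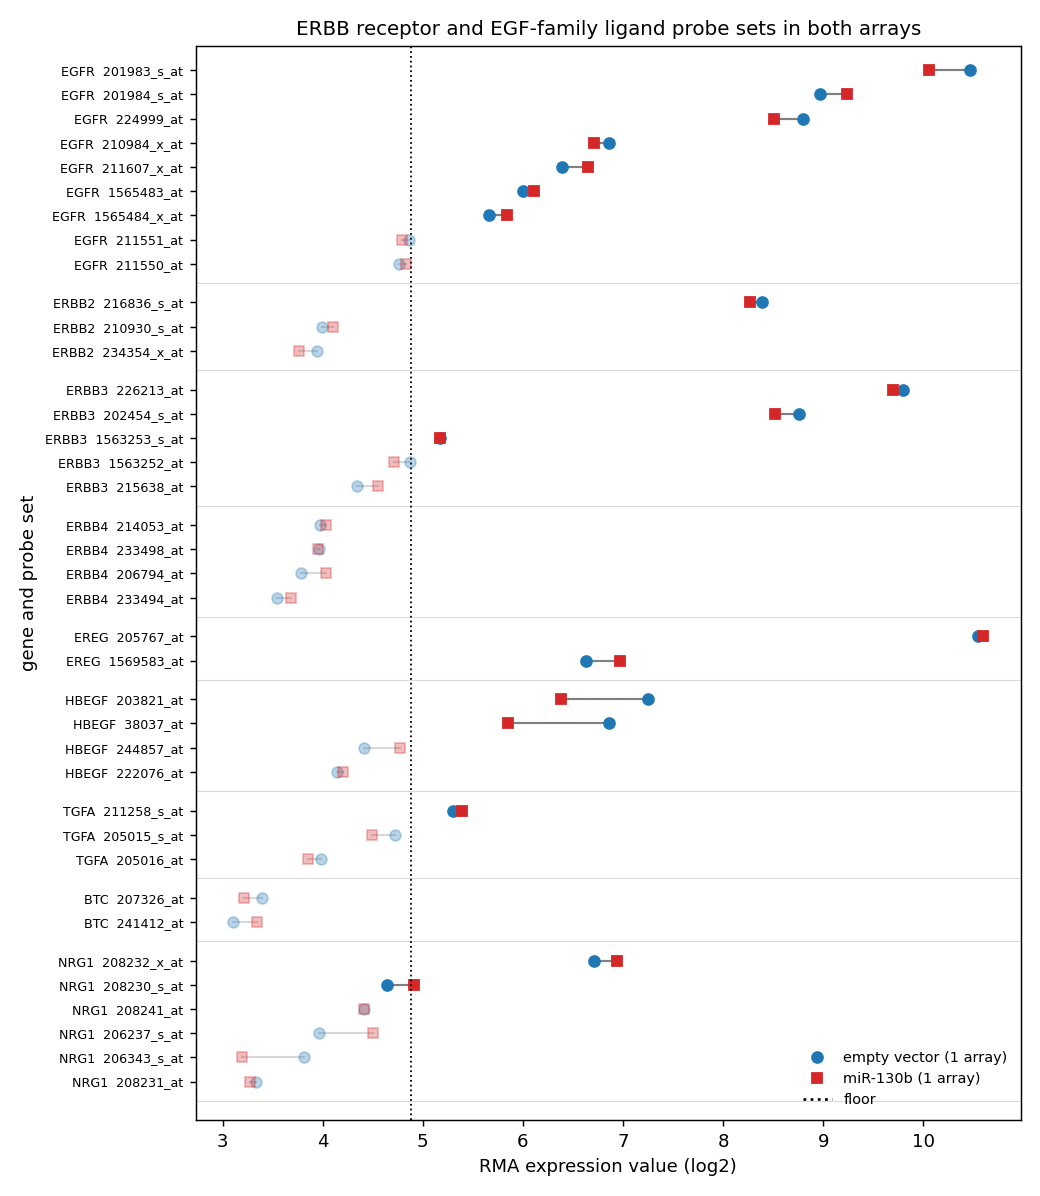
RMA expression values on the log2 scale (horizontal axis) of the 38 probe sets of 9 genes (vertical axis), with a blue circle for the EV array, a red square for the miR-130b array and pale symbols for probe sets below the dotted floor at 4.88. The widest gaps among measured probe sets are the 2 of HBEGF, at -0.87 and -1.02, and EGFR has probe sets shifted to either side.

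EREG, which encodes epiregulin, a ligand of EGFR and ERBB4, differed little. Its brightest probe set, 205767_at, read 10.55 in the EV array and 10.60 in the miR-130b array, a difference of 0.05. The dimmer 1569583_at read 6.63 in the EV array and 6.97 in the miR-130b array, a difference of 0.34. Both lay above the floor in both arrays and both were higher with miR-130b, whereas both measured HBEGF probe sets were lower. The difference of 205767_at was only 0.25 times the technical SD, so its sign carries little weight. The size of EREG's difference depends on the probe set by more than the technical SD.

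NRG1, the neuregulin-1 gene, whose products bind ERBB3 and ERBB4, read 6.71 in the EV array and 6.94 in the miR-130b array in 208232_x_at, a difference of 0.23. A further probe set, 208230_s_at, read 4.64 and 4.91 in the EV and miR-130b arrays, and it passed the floor only through the miR-130b array, so that its direction was fixed by the filter. The other 4 NRG1 probe sets lay below the floor, and their differences ran from -0.62 to 0.54. These dim probe sets of a single gene thus spread over more than the threshold of 1.5-fold in one direction, and they are given as a description of the noise near background. TGFA, the TGF-alpha gene, had 1 measured probe set, 211258_s_at, at 5.30 in the EV array and 5.40 in the miR-130b array. Its 2 dim probe sets differed by -0.12 and -0.23, the opposite sign.

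BTC, which encodes betacellulin, a ligand of EGFR and ERBB4, had no measured probe set. Its 2 probe sets read 3.39 and 3.11 in the EV array and 3.21 and 3.35 in the miR-130b array, with differences of opposite sign, -0.18 and 0.24. Among the other EGF-family ligands, fixed as a list of 5, only NRG2 was measured, at 4.91 and 4.96 in the EV and miR-130b arrays, while EGF, NRG3 and NRG4 lay below the floor and EPGN had no probe set of its own. In the RefSeq gene table for GRCh38.p14, EPGN, EREG, AREG and BTC are consecutive protein-coding genes on chromosome 4. Of these 4 neighbours, EREG alone was measured here.

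EGFR, the receptor for HB-EGF and epiregulin, gave no single direction. The brightest of its 7 measured probe sets, 201983_s_at, read 10.47 in the EV array and 10.05 in the miR-130b array, a difference of -0.42 or 1.34-fold lower. The next in brightness, 201984_s_at, read 8.96 in the EV array and 9.24 in the miR-130b array, a difference of 0.27. The probe set 224999_at read 8.80 and 8.50, a difference of -0.29. In total 3 of the 7 were lower and 4 were higher with miR-130b, and their mean difference was -0.0067 with an SD of 0.28. This SD was larger than that of 90.4% of the genes with at least 2 measured probe sets, whereas probe sets of both signs occurred in 47.1% of them. The 4 with higher values included 211607_x_at, at 6.39 and 6.65, and 1565484_x_at, at 5.67 and 5.84, in the EV and miR-130b arrays. The annotation does not say which EGFR transcript each probe set reads, so no isoform is named.

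ERBB2 and ERBB3 were close to the same level in the 2 arrays. ERBB2, the receptor without a ligand of its own, rested on 216836_s_at, which read 8.39 in the EV array and 8.27 in the miR-130b array, a difference of -0.11. Its other 2 probe sets lay below the floor, with differences of 0.11 and -0.18. ERBB3, whose kinase domain has little activity and which signals mainly through PI3K, read 9.80 in the EV array and 9.70 in the miR-130b array in 226213_at, a difference of -0.10. Its further measured probe sets, 202454_s_at and 1563253_s_at, differed by -0.24 and by 0.00. All 3 measured receptor genes had negative differences in their brightest probe set, but those of ERBB2 and ERBB3 were smaller than the technical SD and EGFR's probe sets were split.

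ERBB4 had no measured probe set. Its 4 probe sets read between 3.54 and 3.97 in the EV array and between 3.69 and 4.04 in the miR-130b array, all below the floor. Their differences, from -0.01 to 0.25, were measured near background.

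**Figure D2:**
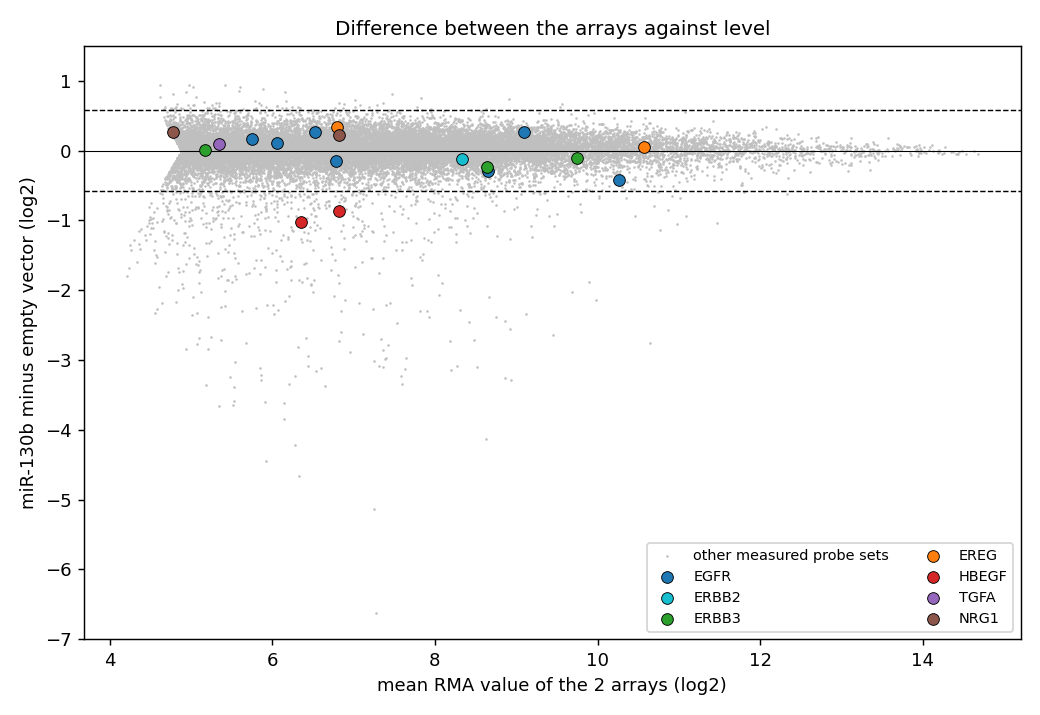
Difference miR-130b minus EV against the mean of the 2 arrays, both on the log2 scale, with grey points for the other measured probe sets, coloured points for the 18 measured probe sets of the members and dashed lines at 1.5-fold. Both HBEGF points lie below the lower dashed line, and the other 16 lie between the lines, from -0.42 to 0.34.

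Over the 18 measured member probe sets, 8 (44.4%) were lower and 10 were higher with miR-130b, with a median of 0.03. Over all measured probe sets, 44.7% were lower and the median was 0.02. Apart from HBEGF, the 16 measured probe sets ranged from -0.42 to 0.34, and 8 of them (50%) differed by less than the technical SD. Of all measured probe sets, 70.2% differed by less than this SD. Over the 7 measured genes the median difference was -0.10, and over all 13260 genes it was 0.03. The 3 receptors had a median of -0.11 and the 4 ligands one of 0.07. With 2 arrays, no gene could be ranked by the likeness of its pattern to a member's.

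The promoters of HBEGF and EREG are shown because HBEGF was the ligand that was lower and EREG is an example of the 3 measured ligands that were not. Each runs from 250 bases before to 50 after the start of the RefSeq transcript in GRCh38.p14, 5' to 3' on the gene's strand, with HBEGF at chr5:140346554-140346853 on the minus strand and EREG at chr4:74364895-74365194 on the plus strand. Capitals mark matches to any of 4 motifs searched on both strands, namely the GC box GGGCGG, the TATA box TATAAA, the AP-1 site TGANTCA and the cyclic AMP response element TGACGTCA.
HBEGF: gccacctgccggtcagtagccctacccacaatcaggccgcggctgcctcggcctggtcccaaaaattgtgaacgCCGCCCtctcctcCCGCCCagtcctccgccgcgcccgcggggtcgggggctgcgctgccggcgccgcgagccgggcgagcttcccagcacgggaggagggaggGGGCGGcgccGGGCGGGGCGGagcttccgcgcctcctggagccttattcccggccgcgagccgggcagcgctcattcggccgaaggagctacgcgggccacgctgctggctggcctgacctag
EREG: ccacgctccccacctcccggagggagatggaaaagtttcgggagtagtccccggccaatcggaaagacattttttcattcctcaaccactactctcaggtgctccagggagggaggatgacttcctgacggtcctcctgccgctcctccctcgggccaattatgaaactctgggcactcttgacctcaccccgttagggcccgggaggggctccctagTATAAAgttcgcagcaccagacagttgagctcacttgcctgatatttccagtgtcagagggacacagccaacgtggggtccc
The HBEGF window held 5 GC boxes, 2 of which overlapped by a single base, and no match to the other motifs. The EREG window held 1 TATA box, beginning 32 bases before the start, and no match to the others. Of 35116 promoter windows of the same length, 45.0% held a GC box, 11.5% a TATA box, 7.71% an AP-1 site and 1.85% a cyclic AMP response element. Among the other members, 1 of the 2 TGFA windows held 4 GC boxes and no TATA box. In EGFR, 1 of the 2 windows held 3 GC boxes, and the other held 2 TATA boxes and 2 AP-1 sites. The ERBB2 window held 1 AP-1 site, and those of ERBB4 and BTC held 1 GC box each. Whether any motif bears on the differences was not tested. In the same search AREG, EREG's neighbour, held 1 TATA box, 1 GC box and 1 cyclic AMP response element. A match is a run of letters, and no binding of a factor was measured.

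Genes that process the ligands are described next. In the list of ligand and receptor shedding, 14 of 16 genes were measured, 2 were at least 1.5-fold lower with miR-130b and 0 were at least 1.5-fold higher. Over all genes measured these shares were 2.68% and 0.294%. PCSK5, a proprotein convertase, read 5.14 in the EV array and 3.54 in the miR-130b array, a difference of -1.60. It passed the floor only through the EV array, so its direction was fixed by the filter and it gives the count no support. TIMP3, the inhibitor of ADAM17 and related proteases, read 8.02 in the EV array and 7.19 in the miR-130b array, a difference of -0.84. All 4 TIMP3 probe sets were measured and lower, with -0.81, -0.40 and -0.84 in the other 3. The list's median was -0.06, against 0.03 over all genes.

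The proteases that release HB-EGF showed no common direction. ADAM17, the main sheddase of several ligands, read 8.89 and 9.07 in the EV and miR-130b arrays, a difference of 0.18, and its 2 other measured probe sets differed by 0.30 and 0.15. ADAM10 read 10.34 and 10.38, a difference of 0.05, but 214895_s_at differed by -0.52 and 202604_x_at by 0.02. ADAM9 read 10.59 in the EV array and 10.44 in the miR-130b array, a difference of -0.15, and 1555326_a_at differed by -0.77. ADAM19 differed by -0.25, and the convertase gene FURIN by -0.21.

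None of the 22 measured adaptors and effectors, of 30 listed, reached 1.5-fold in its representative probe set, and their median was -0.01. SOS2 and SOS1 encode RAS exchange factors. SOS2 read 6.03 in the EV array and 5.58 in the miR-130b array, a difference of -0.45, but its 2 other measured probe sets differed by -0.13 and 0.17. SOS1 read 9.34 and 9.70 in the EV and miR-130b arrays, a difference of 0.36. GAB1, a docking protein for ERBB signalling, read 5.94 in the EV array and 5.51 in the miR-130b array, a difference of -0.42. Its other measured probe set, 226002_at, read 5.26 and 4.43, a difference of -0.83, and the mean of the 2 was -0.63. As 226002_at passed the floor only through the EV array, its direction was fixed by the filter, and the mean past 1.5-fold rests on it. PIK3R1, the regulatory subunit of PI3K, differed by -0.29. A further 8 listed genes had no probe set named by them alone.

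Of the receptor trafficking and inhibitor genes, 23 of 28 were measured, 0 were at least 1.5-fold lower or higher and the median was 0.04. The count is near the shares over all genes, 2.68% lower and 0.294% higher, where the median was 0.03. CAV1, which encodes the caveolar coat protein caveolin-1, read 6.28 in the EV array and 5.84 in the miR-130b array in 203065_s_at, a difference of -0.45. Its other probe set, 212097_at, read 6.24 and 4.53, a difference of -1.71, and the mean of both was -1.08. As 212097_at passed the floor only through the EV array, its direction was fixed by the filter, and the mean past 1.5-fold rests on it. EPS15, an endocytic adaptor of EGFR, differed by 0.39 in the brighter of its probe sets, 217887_s_at, and by -0.02 in 217886_at. LRIG1, a membrane inhibitor of ERBB receptors, read 7.88 in the EV array and 8.26 in the miR-130b array, a difference of 0.38, and SOCS4, which belongs to a family of signalling suppressors, differed by 0.28.

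Downstream, all 21 listed ERK output and feedback genes were measured and 0 reached 1.5-fold in either direction. Their median was -0.09, against 0.03 over all genes. Cyclin D1 (CCND1) differed by -0.46, the phosphatase gene DUSP7 by 0.31, the RAS-ERK inhibitor gene SPRED1 by 0.28 and the ephrin receptor gene EPHA2 by -0.25. Over these 4 pathway lists together, 80 genes were measured, 2 were at least 1.5-fold lower (TIMP3, and PCSK5 through the EV array only) and 0 were at least 1.5-fold higher, against the shares of 2.68% and 0.294% over all genes.

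**Figure D3:**
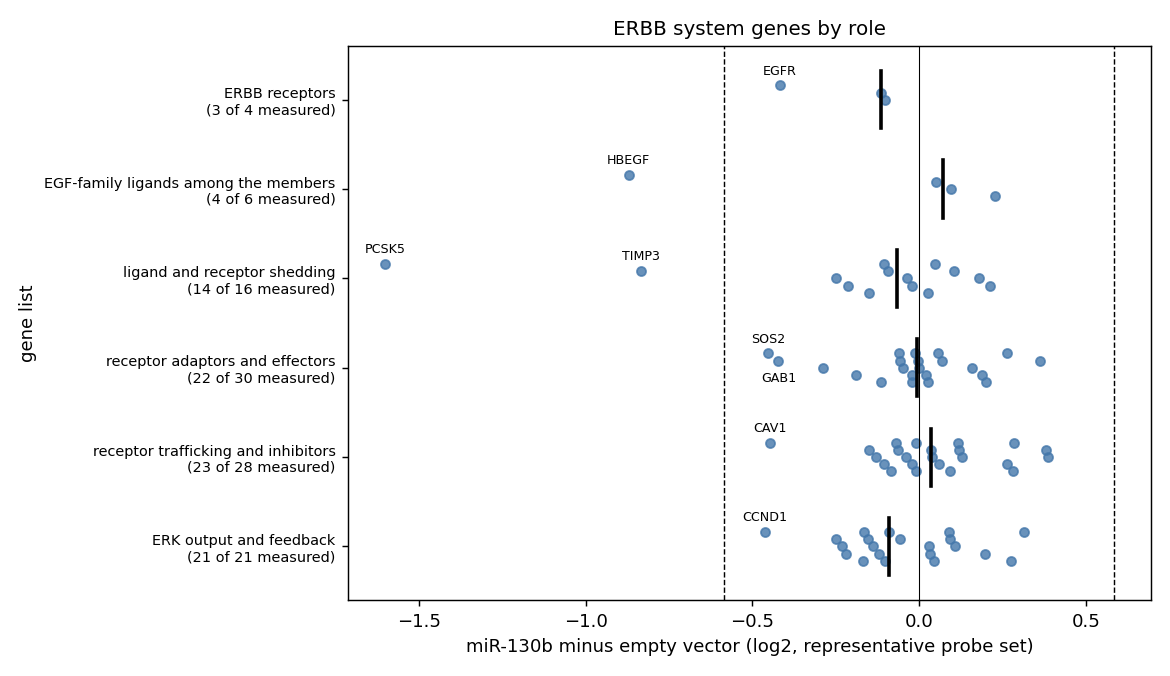
Difference miR-130b minus EV on the log2 scale (horizontal axis) for each measured gene, by its representative probe set, in 6 lists of the ERBB system (vertical axis), with black bars for list medians and dashed lines at 1.5-fold. HBEGF, PCSK5 and TIMP3 lie beyond the lower line, at -0.87, -1.60 and -0.84, and no gene lies beyond the upper line.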

How the data were processed

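Total RNA of 2 samples, 1 per group taken from the sample titles, was hybridised to expression arrays of 54675 probe sets. The authors deposited 1 log2 value per probe set and array, and RMA is named, with no version, in the submitters' processing notes. The sources used here give neither its settings nor which arrays were normalized jointly. Column medians were 4.89 (EV) and 4.88 (miR-130b), and scanner files were not used, so any further centring is unknown. RMA compresses differences of dim probe sets, and the table holds no detection call. The number of arrays limits the precision.

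GEO's platform annotation gave 41091 of the 54613 probe sets other than controls a single gene symbol, 1801 several and 11721 none. Entrez identifiers of 41037 matched RefSeq (GRCh38.p14), which changed 0 symbols. MicroRNA and promoter sequences are RefSeq's. Of the 9 genes looked up, 8 had a promoter window, and ERBB3 had no entry. NRG1 was not looked up. Named genes were all members, up to 4 genes of each pathway list by absolute difference, PROM1, cell type markers and control transcripts. ADAM9, ADAM10, ADAM17, NRG2 and AREG's promoter were chosen after their values were seen. The members and lists were chosen with earlier results of these data known. The computation was checked on simulated arrays with differences of at least 2-fold planted in 200 genes above the 75th percentile. Noise there was smaller than the technical SD, so dim probe sets and differences near 1.5-fold were not covered. Tools were Python 3.11.15, numpy 2.4.6, pandas 2.3.3, statsmodels 0.14.6 and matplotlib 3.10.9.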

Additional observations from a re-analysis of the deposited data

How the results depend on the processing

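Each result was recomputed with the floor removed or raised to the 75th percentile (6.98), with a gene's measured probe sets averaged, without those ending in _x_at or _s_at, and with loess (span 0.3) or median centring. HBEGF was the only member at least 1.5-fold lower under all 6, and no member was 1.5-fold higher. With the higher floor, HBEGF rested on 203821_at, at 7.25 in the EV array and 6.38 in the miR-130b array. It passed that floor only through the EV array, so its direction was fixed by the filter and this setting gives no support. EGFR moved from -0.42 to -0.0067 with the mean of its probe sets. With that mean, 1 adaptor (GAB1) and 1 trafficking gene (CAV1) passed 1.5-fold lower, against 0, each through a probe set above the floor in the EV array only. SOS2 moved from -0.45 to -0.14 and EPS15 from 0.39 to 0.18. Without suffixed probe sets, CAV1 again made this count 1, and the shedding list had 1 gene (PCSK6, -0.68 in 242662_at, above the floor in the EV array only) in place of 2. With the higher floor it also had 1 (TIMP3). The higher floor left 5 members measured and the suffix rule left 4, so TGFA and NRG1 had no value under either and ERBB2 none under the suffix rule. No paired analysis was possible because each group holds 1 array, and no replicate could be left out. Values near the floor hold little signal over background, and a difference between cultures other than the vector cannot be told apart from it.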

Other observations

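Membrane-bound HB-EGF is known to associate with the tetraspanin CD9, and genes of its reported partners were looked up after the HBEGF values had been seen, so their choice followed from that result. Of 8 genes, 7 were measured, 1 was lower with miR-130b by 1.5-fold or more and 0 were higher by that much, against 2.68% and 0.294% of all genes measured. CD9 read 6.57 in the EV array and 5.57 in the miR-130b array in its only measured probe set. CD44, a hyaluronan receptor that can carry HB-EGF on its heparan sulphate chains, differed by -0.47 in its representative probe set, which stood above the floor in both arrays. Its 3 other measured probe sets, among them 212063_at at 5.84 in the EV array and 3.84 in the miR-130b array, passed the floor only through the EV array, so that their lower values were fixed by the filter. CD81, a tetraspanin related to CD9, differed by -0.06, from 10.59 to 10.52. ITGB1, the beta-1 integrin subunit, differed by -0.05 in the brightest of 3 measured probe sets and by -0.34 and -0.42 in the others, and ITGA3 by 0.14. NRDC, which encodes a metalloprotease that binds HB-EGF, differed by 0.08, and BAG1 by -0.05.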
